A study of Mus musculus with 4 samples.

Results

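Bone tissue of wild-type mice held cells that carried Clec4n together with transcripts of Creg1, Pdcd1lg2, Ptgr1 or Gclm, described here as member cells. The name neutrophil-like, under which they were chosen, held for only part of them. They were selected from single-cell RNA sequencing by unique molecular identifiers (UMIs), each of which stands for 1 captured transcript. A barcode was taken when it had at least 4 UMIs of Creg1, Pdcd1lg2, Ptgr1 and Gclm together and at least 1 UMI of Clec4n. It also had under 3 UMIs of the monocyte genes Csf1r, Ms4a6c and Ccr2, under 10 of the skeletal genes Col1a1, Col1a2 and Acan, under 2 of the lymphocyte genes Cd79a and Cd3e, and under 1% of UMIs from the secondary granule genes Camp, Ngp and Ltf. The barcodes considered had 1000 to 40000 UMIs, at least 200 genes, no more than 10% of UMIs from mitochondrial and 0.2% from haemoglobin genes. The rule found 1776 member cells among 31279 passing barcodes of 40003 in all. Since measured values chose the cells, the genes of the rule and all comparisons of member cells with other cells are given as description, without a test.

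The study compared control mice (Ctrl) with mice under hindlimb unloading (HLU), in which the tail is suspended so that the hind legs bear no weight. There were 2 libraries per group, each from the tibia and femur of 1 wild-type mouse, and HLU lasted 28 days. The marrow was flushed out before the bone was digested, so that the cells come from what remained in and on the bone. The sources used here do not give the same age for the mice, and they name no transgene, drug or cell sort in either group. Libraries held 47819046 to 99849070 UMIs, the highest in HLU replicate 2. Pairs of libraries shared 13 to 21 passing barcodes, and no barcode of a member cell was shared. HLU replicate 2 stood apart: its member cells had a median of 0.222% of UMIs in the 4 rule genes, against 0.505% to 0.651% in the other libraries, and a median of 13.2% in S100a8 and S100a9, against 2.01% to 3.28%. Results that rest on it are given with and without it.

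Neutrophils are short-lived phagocytes that mature in the bone marrow, store antimicrobial proteins in granules and carry large amounts of the calcium-binding proteins S100a8 and S100a9. Cells exposed to oxidants or to haem induce a shared group of genes through the transcription factor NRF2, among them the enzymes that make glutathione, the thioredoxin and peroxiredoxin system, haem oxygenase and ferritin, the cage that stores iron. NRF2 binds a short DNA element, the antioxidant response element, in many of these genes. The rule genes touch on this programme. Gclm encodes the modifier subunit of glutamate-cysteine ligase, the enzyme that opens glutathione synthesis. Ptgr1 encodes a reductase of prostaglandins and leukotriene B4. Creg1 is a lysosomal glycoprotein, Pdcd1lg2 encodes PD-L2, a ligand of the checkpoint receptor PD-1, and Clec4n encodes Dectin-2, a C-type lectin that binds fungal sugars. Prdx1 encodes peroxiredoxin 1, an enzyme that removes peroxides.

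In the mm10 genome, Clec4n lies on chromosome 6 from 123229843 to 123247021 on the plus strand. Creg1 lies on chromosome 1 from 165763746 to 165775308, and Gclm on chromosome 3 from 122245557 to 122270732, both on the plus strand. Pdcd1lg2 lies on chromosome 19 from 29410919 to 29471161 on the plus strand. Prdx1 (116685544 to 116700822, plus strand) and Ptgr1 (58965439 to 58987119, minus strand) both lie on chromosome 4.

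Promoters from RefSeq (mm10), each covering 250 bases before to 50 after a gene's start, were read for the core of the antioxidant response element, TGACNNNGC, on both strands. Of 28 genes, the rule genes and the NRF2 targets listed below, 23 had a promoter sequence and 8 of these (34.8%) held the core, against 14.0% of all 27025 gene symbols and 12.4% of all 32851 windows of this length. The genes with the core were G6pdx, Gclm, Me1, Mgst1, Pgd, Prdx1, Srxn1 and Txnrd1. Creg1, Ptgr1, Pdcd1lg2, Fth1 and Ftl1 were among the 15 without these letters in this window. Where the middle letters are TCA, the core also holds TGACTCA, the element of the AP-1 factors, as it does in Prdx1 and Me1. The promoter of Gclm is shown as that of a rule gene, whose level only restates the choice of the cells. Those of Prdx1 and of the thioredoxin system genes Txnrd1 and Srxn1 are shown because their transcripts set the member cells apart in the values that follow. The 4 sequences are written along the gene, and capitals mark the core. In all 4 it lies on the opposite strand and so reads as its reverse complement. Its first base stood at -133 from the start in Prdx1 (chr4:116685349-116685648), at -134 in Gclm (chr3:122245307-122245606), at -92 in the second of the 3 windows of Txnrd1 (chr10:82858956-82859255) and at 29 in Srxn1 (chr2:152105274-152105573), all on the plus strand. A match of letters is a description of the window only.
Prdx1: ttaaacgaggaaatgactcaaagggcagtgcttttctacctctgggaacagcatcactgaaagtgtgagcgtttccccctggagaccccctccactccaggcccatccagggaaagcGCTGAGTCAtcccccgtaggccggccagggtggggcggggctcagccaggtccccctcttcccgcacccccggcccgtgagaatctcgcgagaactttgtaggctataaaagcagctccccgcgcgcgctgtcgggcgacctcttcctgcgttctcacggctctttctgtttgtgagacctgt
Gclm: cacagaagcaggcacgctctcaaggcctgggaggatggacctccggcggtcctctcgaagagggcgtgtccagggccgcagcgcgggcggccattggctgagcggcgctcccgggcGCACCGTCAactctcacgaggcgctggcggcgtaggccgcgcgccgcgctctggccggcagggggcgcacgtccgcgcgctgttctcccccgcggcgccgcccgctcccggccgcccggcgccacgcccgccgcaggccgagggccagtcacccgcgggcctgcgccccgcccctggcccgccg
Txnrd1: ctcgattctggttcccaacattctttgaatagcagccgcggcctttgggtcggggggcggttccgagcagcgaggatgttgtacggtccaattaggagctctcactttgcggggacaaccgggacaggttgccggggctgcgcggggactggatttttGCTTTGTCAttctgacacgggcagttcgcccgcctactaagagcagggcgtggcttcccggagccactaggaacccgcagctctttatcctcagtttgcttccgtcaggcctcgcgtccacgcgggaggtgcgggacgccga
Srxn1: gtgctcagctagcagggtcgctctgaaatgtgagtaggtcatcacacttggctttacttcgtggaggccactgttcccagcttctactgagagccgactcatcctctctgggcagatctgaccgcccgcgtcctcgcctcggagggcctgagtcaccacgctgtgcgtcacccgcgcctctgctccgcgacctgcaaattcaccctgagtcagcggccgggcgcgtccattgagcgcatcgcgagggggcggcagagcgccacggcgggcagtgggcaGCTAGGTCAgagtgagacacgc

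The member cells were first set beside markers of neutrophils and of other cell types. Counts were summed over the cells of a population in each library and scaled to the same total in every sum (CPM). Other mature neutrophils (7700 cells) were those with at least 2% of UMIs in S100a8 and S100a9 and the same limits on monocyte, skeletal, lymphocyte and secondary granule genes. Monocytes (2068 cells) carried at least 5 UMIs of Csf1r, Ms4a6c and Ccr2, and lymphocytes (1392 cells) at least 3 UMIs of Cd79a and Cd3e. Values are given for Ctrl replicates 1 and 2 and then HLU replicates 1 and 2, an order kept throughout. Clec4n stood at 1218, 1544, 1619 and 796 CPM in member cells and at 10.04, 10.9, 8.95 and 21.2 CPM in mature neutrophils. Creg1 stood at 2991, 2359, 3190 and 1371 CPM in member cells and Gclm at 2032, 1638, 2211 and 551 CPM. Pdcd1lg2 stood at 86.4, 151, 129 and 23.9 CPM, and 28.5%, 25.5%, 31.8% and 9.30% of member cells had a UMI of it. These genes are the rule, so their levels only restate the choice, and HLU replicate 2 was lowest in each of them. In Prdx1, which the rule did not count, member cells stood at 9409, 9882, 11091 and 3846 CPM, and mature neutrophils at 667, 473, 624 and 492 CPM. Monocytes lay between them, at 4064, 3870, 4711 and 2481 CPM.

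The neutrophil label held in part. A list of 20 neutrophil genes (S100a8, S100a9, Csf3r, Cxcr2, Retnlg, Mmp8 and others) summed to 63892, 76745, 89715 and 152251 CPM in member cells, between the mature neutrophils (161807 to 218909 CPM) and the monocytes (4963 to 12156 CPM). Lymphocytes, in which no neutrophil gene was capped, reached 3946 to 43308 CPM of the same list. The monocyte list, of which the rule capped 3 genes, summed to 387 to 1954 CPM in member cells and 3780 to 4705 CPM in monocytes. The macrophage list summed to 266, 293, 323 and 785 CPM in member cells and 442 to 787 CPM in monocytes. Adgre1, which encodes the macrophage protein F4/80, had a UMI in 3.003%, 10.2%, 5.94% and 63.6% of member cells, in 40.8% of mature neutrophils of HLU replicate 2 and in 3.89% of its lymphocytes (medians of 3880 and 2502 UMIs). In member cells and in mature neutrophils this share was highest in HLU replicate 2. Siglecf, the lectin of eosinophils, had 1, 0, 2 and 5 UMIs in all member cells of a library, and the osteoclast fusion gene Dcstamp had 0 in each. The basophil and mast cell list summed to 18.6, 217, 36.0 and 300 CPM, and this was carried in part by Prss34, a basophil protease, at 152 CPM in Ctrl replicate 2 and 110 CPM in HLU replicate 2. Skeletal transcripts, which free RNA of bone cells can bring into any droplet, summed to 11889, 11395, 2200 and 405 CPM in member cells. They summed to 4244, 5137, 119 and 223 CPM in lymphocytes, higher in Ctrl than in HLU in both populations.

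**Figure D1:**
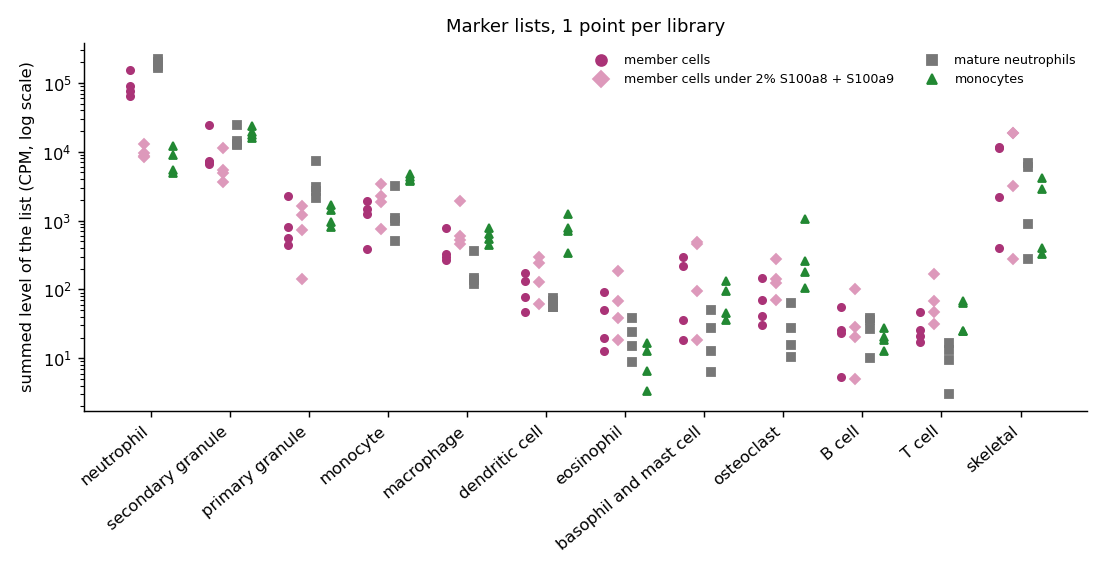
Summed level (CPM, log scale) of each marker list in member cells, in the member cells under 2% of UMIs in S100a8 and S100a9, in mature neutrophils and in monocytes, with 1 point per library. Member cells lie between mature neutrophils and monocytes in the neutrophil list, and those under 2% overlap the monocytes there, at 8428 to 13157 CPM against 4963 to 12156 CPM.

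Member cells were not uniform in S100a8 and S100a9. Of them, 50.2%, 59.1%, 57.8% and 80.2% reached the 2% of UMIs that defines the other mature neutrophils, and the rest lay below it. In the cells below 2%, the neutrophil list summed to 8693, 8428, 13157 and 9667 CPM, which overlaps the range of the monocytes. The monocyte list summed to 2247, 3448, 744 and 1855 CPM in them, against 4252, 3930, 4705 and 3780 CPM in monocytes, and the rule caps 3 of its 11 genes. Csf3r, the receptor of G-CSF, stood at 67.9, 60.9, 138 and 56.9 CPM in these cells and at 33.0, 46.1, 72.6 and 56.8 CPM in monocytes. The neutrophil resistin-like gene Retnlg stood at 1408, 768, 1646 and 39.6 CPM in these cells and at 101, 128, 343 and 103 CPM in monocytes. In lymphocytes it summed to 170, 587, 1834 and 901 CPM, which it did not exceed in either HLU library. The lymphocytes had no cap on neutrophil genes. In the HLU libraries their S100a8 and S100a9 share had a median of 0.278% and 0.235% but a 95th percentile of 12.65% and 11.8%. Their sums may thus hold more than free RNA. Since their neutrophil list overlaps that of the monocytes, the cells below 2% are called member cells only, with no cell type name. In HLU replicate 2 member cells of both ranges carried Adgre1, at 370 CPM below 2% and 268 CPM at or above it, against 3.93 to 54.7 CPM in the other libraries. Spic, a transcription factor of iron-recycling macrophages, stood at 226 CPM below 2% there and at 1.78 to 4.68 CPM in the other libraries.

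The 2 ranges of S100a8 and S100a9 also differed in the oxidant and iron genes. Ferritin, taken as Fth1 and Ftl1 together, held a median of 21.3%, 16.3%, 20.3% and 14.9% of a cell's UMIs below 2%, and 15.4%, 14.5%, 12.5% and 12.5% at or above it. Prdx1 held a median of 0.813%, 0.474%, 1.09% and 0.805% below and 0.348%, 0.256%, 0.306% and 0.104% at or above. Both were higher below 2% in all 4 libraries. Shares of UMIs sum to a fixed total within a cell, and the part of that limit in these differences was not tested. Over all member cells, ferritin held a median of 18.4%, 15.1%, 15.9% and 12.95% of UMIs, against 5.56%, 5.13%, 4.06% and 6.70% in mature neutrophils and 0.594% to 0.639% in lymphocytes. Within the member cells of a library the middle span of ferritin (25th to 75th percentile) ran from 12.7% to 23.2% in Ctrl replicate 1 and from 8.88% to 17.1% in HLU replicate 2.

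**Figure D2:**
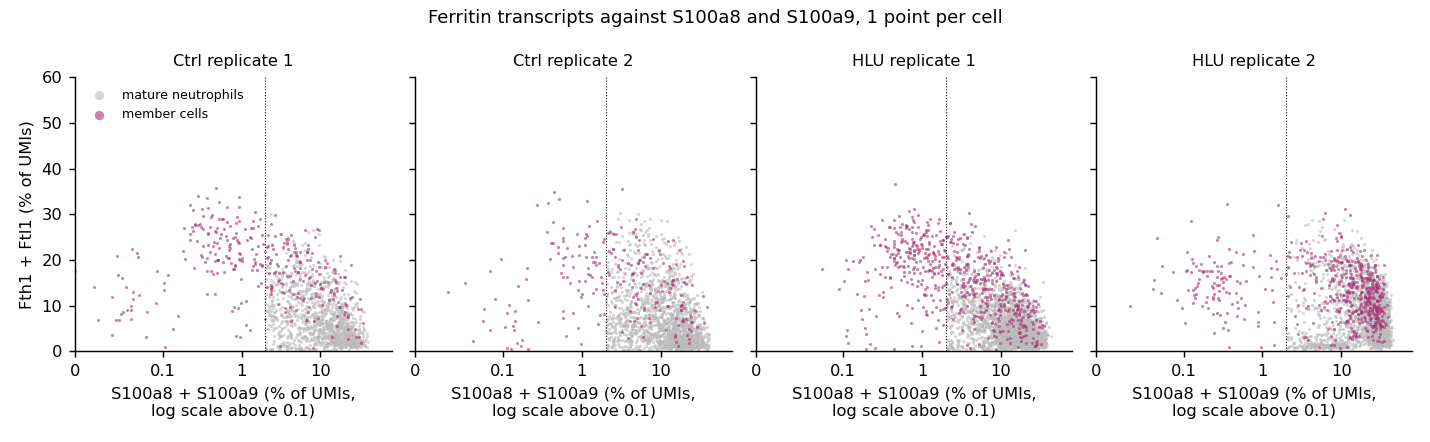
Share of UMIs in Fth1 and Ftl1 (vertical axis, %) against the share in S100a8 and S100a9 (horizontal axis, %, log scale above 0.1) in each library, 1 point per cell, with mature neutrophils in grey, member cells in purple and the 2% limit dotted. Mature neutrophils begin at the dotted line by definition, and member cells extend to its left, where their median ferritin share was 14.9% to 21.3%.

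At the edge of the rule, 23 to 135 cells a library (232 in all) had 4 or 5 UMIs of the 4 genes and were just inside, and 32 to 143 (264 in all) had Clec4n with 2 or 3 UMIs and were just outside. A further 814 to 1302 barcodes a library had 4 or more UMIs of the 4 genes but no Clec4n. Depth differed little from that of the other mature neutrophils in HLU replicate 2 and more elsewhere: member cells had medians of 4490, 3643, 3365 and 3908.5 UMIs, and mature neutrophils 2109.5, 2589, 2496 and 3880 UMIs. Doublets called within each library made up 7.21%, 2.98%, 5.45% and 3.99% of member cells, and 5.85% to 7.12% of all passing barcodes.

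Member cells were then set beside the other mature neutrophils of the same library, over the 6499 genes with a mean of at least 10 CPM. Values are log2 ratios of summed CPM with 1 CPM added, as mean ± SD over the 4 libraries. Across all these genes the median was 0.11. Member cells were above mature neutrophils in all 4 libraries in 26.5% of genes and below in all 4 in 17.3%. For the list counts over all member cells that follow, these 2 shares are the background. Of the NRF2 targets, 20 of 24 measured were above in all 4, with a median of 1.70, and only the glutathione transferase Mgst1 was below in all 4. Prdx1, Gclm and Ptgr1 belong to this list, and the last 2 are rule genes. When only the member cells with at least 2% of S100a8 and S100a9 were kept, 19 of 24 were above, where 13.1% of all genes were.

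The redox genes of this list were higher across the thioredoxin, quinone and haem branches. Prdx1 was higher by 3.83 ± 0.62. Srxn1, the sulfiredoxin that repairs over-oxidised peroxiredoxins, stood at 362, 336, 379 and 152 CPM against 87.6, 58.6, 66.2 and 32.9 CPM, a log2 ratio of 2.30 ± 0.24. It was found in 64.6%, 53.2%, 57.1% and 39.4% of member cells and in 15.9%, 9.98%, 12.6% and 13.6% of mature neutrophils. Lymphocytes, read as a background for free RNA and mixed barcodes, had it in 4.23%, 6.98%, 4.56% and 2.99% of cells at medians of 3683.5, 3878, 3750.5 and 2502 UMIs. The thioredoxin reductase Txnrd1 stood at 334, 374, 457 and 684 CPM against 88.6, 83.6, 110 and 219 CPM (1.93 ± 0.22), and its level was highest in HLU replicate 2. Nqo1, a quinone reductase, was higher by 2.09 ± 0.44 and was found in 25.2%, 31.5%, 24.8% and 32.1% of member cells against 4.57%, 4.72%, 4.26% and 14.8% of mature neutrophils.

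Haem genes and several iron genes were higher as well. Hmox1, the haem oxygenase that frees iron from haem, stood at 4751, 5143, 5170 and 1910 CPM in member cells and at 1473, 2023, 1794 and 278 CPM in mature neutrophils (1.83 ± 0.64). Blvrb, which reduces biliverdin, the product of haem breakdown, stood at 1043, 961, 1105 and 725 CPM against 281, 138, 158 and 189 CPM (2.35 ± 0.51). In monocytes Blvrb stood at 454, 558, 486 and 780 CPM, above the member cells in HLU replicate 2. Member cells and mature neutrophils did not overlap in Blvrb. In Hmox1 only HLU replicate 2 of the member cells reached into the range of the mature neutrophils. The ferritin heavy chain Fth1 was higher by 1.02 ± 0.28 and the light chain Ftl1 by 1.63 ± 0.49, with Ftl1 at 64181, 53273, 62322 and 31405 CPM against 18869, 14817, 15627 and 16669 CPM. Of 10 iron handling genes measured, 6 were above in all 4 libraries and none below, where 26.5% and 17.3% of all genes were. Among the member cells with at least 2% of S100a8 and S100a9, 6 were above and 2 below, where 13.1% and 20.3% of all genes were. Against the activated mature neutrophils 4 of 10 were above, near the 35.3% of all genes. The 6 of the first count were Fth1, Ftl1, Hmox1, the phagosomal metal transporter Slc11a1 (1.67 ± 0.40), the iron chaperone Pcbp1 (0.92 ± 0.33) and the iron exporter Slc40a1 (0.46 ± 0.24). Tfrc, the transferrin receptor through which cells take up iron, was above in 3 libraries and below in HLU replicate 2.

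**Figure D3:**
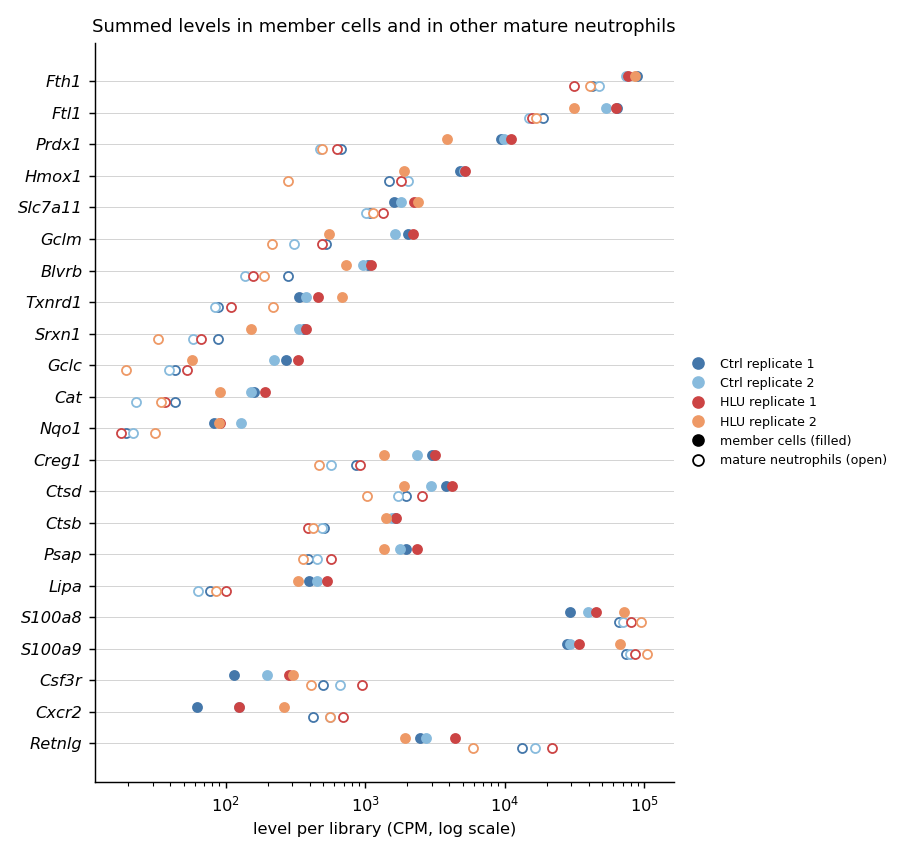
Summed level (CPM, log scale) of oxidant, iron, lysosome and neutrophil genes in member cells (filled) and other mature neutrophils (open), 1 point per library. In the Prdx1 row all member cell points (3846 to 11091 CPM) lie right of all mature neutrophil points (473 to 667 CPM), and in the S100a9, Csf3r and Retnlg rows they lie left of them.

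Glutathione genes went both ways. The genes of synthesis were higher: the catalytic subunit of the ligase Gclc stood at 271, 223, 330 and 57.6 CPM against 43.4, 39.4, 53.1 and 19.3 CPM (2.31 ± 0.52), and glutathione synthetase Gss was higher by 2.29 ± 0.72. Slc7a11, which imports cystine in exchange for glutamate, was higher by 0.80 ± 0.21. Several enzymes that spend glutathione were lower over all member cells. Gpx1 stood at 304, 267, 355 and 308 CPM against 613, 437, 643 and 521 CPM (-0.83 ± 0.13), and the lipid peroxidase Gpx4 (-0.30 ± 0.17), Mgst1 (-1.07 ± 0.57), Mgst2 (-0.63 ± 0.54) and the glutaredoxin Glrx (-0.36 ± 0.23) were below in all 4 libraries. Of 13 genes measured, 5 were above in all 4, 5 below in all 4 and 3 mixed, where 26.5% of all genes were above and 17.3% below. The rule gene Gclm is 1 of the 5 above. Among the member cells with at least 2% of S100a8 and S100a9, 4 were above and only 1 below, where 13.1% and 20.3% of all genes were. The transferase Gstm1 was above in all 4 over all member cells, but at 217 against 214 CPM in HLU replicate 2. Cat, the catalase, was higher by 2.07 ± 0.58, and Gsr, which regenerates glutathione, by contrast had no common direction (-0.15 ± 0.23).

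Lysosome genes formed a further group, with 17 of 21 measured above mature neutrophils in all 4 libraries, none below and a median of 1.24. Creg1 of the rule is 1 of them. Psap, the precursor of the saposins that help to degrade sphingolipids, stood at 1951, 1765, 2339 and 1374 CPM against 392, 453, 574 and 361 CPM (2.06 ± 0.18). The protease cathepsin B, Ctsb, stood at 1649, 1568, 1676 and 1404 CPM against 511, 490, 388 and 426 CPM (1.80 ± 0.21), without overlap. Cathepsin D (Ctsd, 0.84 ± 0.09), the membrane protein Lamp1 (1.29 ± 0.20), the macrosialin Cd68 (1.48 ± 0.32) and the cholesterol carrier Npc2 (0.91 ± 0.28) were higher by less. Sqstm1, an autophagy receptor that is also an NRF2 target, was higher by 1.92 ± 0.34. With the activated mature neutrophils (1635 cells with at least 3 UMIs of Ccrl2 and Il1rn) in their place, 19 of 21 lysosome genes and 19 of 24 NRF2 targets were above, where 35.3% of all genes were.

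Lipid genes also differed, in both directions. Lipa, the lysosomal acid lipase, stood at 398, 452, 537 and 332 CPM against 77.8, 63.9, 100 and 84.9 CPM (2.38 ± 0.35), and the lipid droplet coat Plin2 was higher by 1.09 ± 0.24. Cd36, a fatty acid receptor, was higher by 3.41 ± 1.12 but from 146 CPM in Ctrl replicate 2 and 20.3 to 29.1 CPM elsewhere. The 3 genes that were below in all 4 libraries act in 1 pathway, the making of leukotrienes: Alox5 (-1.05 ± 0.40), its activating protein Alox5ap (-0.66 ± 0.16) and Lta4h (-1.20 ± 0.52), which forms leukotriene B4. Ptgr1, a rule gene, acts on leukotriene B4 as well and was higher by 2.97 ± 0.92. In all, 9 of 14 lipid genes were above in all 4 libraries and 3 below, where 26.5% and 17.3% of all genes were. With the member cells of at least 2% of S100a8 and S100a9 taken alone, 6 of 14 were above and 4 below, where 13.1% and 20.3% of all genes were.

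The 12 highest ratios were read over all genes, listed or not, that passed 50 CPM in 1 of the 2 populations in every library. They were those of Clec4n (6.58 ± 0.97), Gpnmb, Prdx1, Gdf15, Ptgr1, Cxcl3, Procr, Lipa, Blvrb, Slc43a2, Gclc and Srxn1. Clec4n and Ptgr1 are rule genes, so their places restate the choice, and several others are on the lists above. Gpnmb, a glycoprotein of lysosomes in phagocytes, stood at 177, 102, 234 and 204 CPM against 17.6, 12.2, 7.57 and 3.39 CPM (4.14 ± 1.23). It is also on the macrophage list and stood at 134 to 254 CPM in monocytes. Gdf15, a stress-induced cytokine, stood at 111, 155, 114 and 84.9 CPM against 24.1, 25.2, 7.06 and 6.86 CPM (3.004 ± 0.78). In monocytes it stood at 168, 184, 127 and 14.3 CPM, above the member cells in every library but HLU replicate 2. The neutrophil chemoattractant Cxcl3 was higher by 2.48 ± 1.14 but stood as high in monocytes (435 to 2441 CPM) as in member cells (643 to 2880 CPM). The amino acid transporter Slc43a2 was higher by 2.34 ± 0.36. Procr, the protein C receptor, was higher by 2.40 ± 0.79 over all member cells and stood at 384, 726, 167 and 204 CPM in those with under 2% of S100a8 and S100a9. In those at or above 2% it stood at 18.1, 25.3, 5.54 and 32.7 CPM against 28.9, 35.4, 11.2 and 28.5 CPM in mature neutrophils, lower in 3 of 4 libraries.

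Genes of the neutrophil list were mostly lower. Of the list, 16 of 20 were below mature neutrophils in all 4 libraries, with a median of -1.31 against 0.11 over all genes, and Clec4d, a lectin gene of the same cluster as Clec4n, was the 1 gene above. The mature neutrophils were defined by a floor in S100a8 and S100a9 that the member cells did not have, so the choice favoured lower values of these 2 genes in member cells. Among the member cells with at least 2% of both, 13 of 20 were below. The chemokine receptor Cxcr2, which draws neutrophils out of the marrow, stood at 62.8, 125, 126 and 261 CPM against 425, 560, 692 and 561 CPM (-2.11 ± 0.71). Retnlg stood at 2470, 2727, 4425 and 1940 CPM against 13372, 16425, 21763 and 5929 CPM (-2.23 ± 0.43), and neither gene overlapped between the populations. Among the 2006 genes with at least 50 CPM in 1 of the populations in every library, and of these the ones with the same sign in all 4, the 12 lowest ratios were those of Hdc (histidine decarboxylase), Pglyrp1 (a peptidoglycan binding granule protein), Elane, Mxd1, Retnlg, Lmnb1 (lamin B1), R3hdm4, Lrg1, Cxcr2, Slc2a3 (the glucose transporter GLUT3), Rab44 and Prtn3, at -2.32 to -1.97.

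Primary granule genes were lower than in the other mature neutrophils, and none of them was capped in either population. All 5 measured were below in all 4 libraries, among them the proteases neutrophil elastase, Elane, at 177, 259, 202 and 825 CPM against 1407, 1241, 922 and 2704 CPM (-2.28 ± 0.52), and Prtn3 (-1.97 ± 0.45). Against the activated mature neutrophils 3 of 5 were below and none above, where 16.2% of all genes were below. Of the secondary granule genes, 6 of 10 were below, but Camp, Ngp and Ltf were capped in both populations. Cxcr4, the receptor that retains neutrophils in the marrow and marks aged ones, was lower too, at 40.9, 70.2, 117 and 13.9 CPM against 162, 234, 323 and 17.1 CPM (-1.35 ± 0.75). None of the HIF targets was above in all 4 libraries and 4 of 15 were below, Vegfa, Egln3, Ero1l and Mxi1. Glycolysis genes had 1 of 19 above and 6 below. Over all genes 26.5% were above and 17.3% below.

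Some markers of monocytes and macrophages were above mature neutrophils as well. Of 7 monocyte genes measured, 5 were above in all 4 libraries (F13a1, Fn1, Ctss, Klf4 and Irf8) and Ly6c2 was below, with a median of 1.27. Of 4 macrophage genes 2 were above (Apoe and Gpnmb, median 1.19), where 26.5% of all genes were above and 17.3% below. Among the member cells with at least 2% of S100a8 and S100a9, none of 7 and 1 of 4 were above. Their part in the higher lysosome and lipid genes was not tested. In those cells 14 of 21 lysosome genes were above in all 4 libraries and 0 below. Of 14 lipid genes 6 were above and 4 below there, where 13.1% and 20.3% of all genes were. The checkpoint ligand Cd274, which encodes PD-L1, the other ligand of PD-1, had no common direction (65.5, 157, 111 and 169 CPM against 73.3, 263, 52.6 and 45.5 CPM), and Arg1, the arginase of suppressive myeloid cells, had 1 to 11 UMIs a library. Among the C-type lectins, Clec4d, Clec4a1 (1.79 ± 0.26) and Clec4a3 (1.35 ± 0.22) were above in all 4 with Clec4n, and Clec12a, an inhibitory receptor, was below (-1.54 ± 0.37). Of 20 activation genes 5 were above and none below, near the 26.5% of all genes, and against the activated mature neutrophils 1 was above and 4 below. Since the study asked about glutamine and cell death, these genes were read as well. Of 14 glutamine genes, 7 were above in all 4, among them the rule gene Gclm and its partner Gclc, the glutamate dehydrogenase Glud1 (0.49 ± 0.10) and the glutamine synthetase Glul (0.77 ± 0.16), while the carrier Slc1a5 was above in 3 libraries and below in HLU replicate 2. Among the member cells with at least 2% of S100a8 and S100a9, 4 were above and 1 below, where 13.1% and 20.3% of all genes were. Of 14 pro-apoptotic genes 4 were above in all 4 libraries and 1 below, and of 9 anti-apoptotic genes 1 was above, where 26.5% of all genes were. Among the member cells with at least 2% of S100a8 and S100a9, 2 of the 14 were above, where 13.1% of all genes were. The 4 above over all member cells were the death effector Bax (1.53 ± 0.36), Diablo (0.83 ± 0.54), Bid and Bad, and Apaf1 was below. Xiap, the inhibitor that Diablo binds, had no common direction (0.17 ± 0.32). The study compared HLU with Ctrl in monocytes, whereas these values set member cells beside mature neutrophils. None of the 7 interferon-stimulated genes measured was above in all 4, and 3 were below, where 26.5% and 17.3% of all genes were.

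Unloading was first compared by how many member cells each library held. Member cells made up 333 of 7311 passing barcodes in Ctrl replicate 1 (4.55%, exact 95% interval 4.09% to 5.06%) and 235 of 7495 in Ctrl replicate 2 (3.14%, 2.75% to 3.56%). They made up 606 of 7571 in HLU replicate 1 (8.004%, 7.40% to 8.64%) and 602 of 8902 in HLU replicate 2 (6.76%, 6.25% to 7.30%). Both HLU libraries lay above both Ctrl libraries, at 7.38% ± 0.878 against 3.85% ± 1.004 (SD, n = 2), and the difference of 3.54 percentage points had p = 0.333 in a two-sided exact permutation test over libraries, the smallest that 2 against 2 allows. The intervals cover counting error only, and not the spread between mice.

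How large the difference was depended on what the cells were counted against. The Ctrl libraries held more skeletal cells, and without them in the denominator the shares were 6.003% and 3.96% in Ctrl and 8.04% and 6.82% in HLU, a difference of 2.45 points. Among the cells with at least 2% of S100a8 and S100a9 together with the member cells, the shares were 21.0%, 11.7%, 19.1% and 18.7%, so that Ctrl replicate 1 was the highest library and the groups overlapped (16.3% ± 6.56 against 18.9% ± 0.327, exact permutation p = 1). The passing barcodes with at least 2000 UMIs were also thinned to 2000 UMIs, with 2 UMIs of the 4 genes required. This left 6231 and 6520 barcodes in Ctrl and 6086 and 8315 in HLU. The shares were 3.87% and 3.31% in Ctrl and 7.77% and 7.43% in HLU. Chosen after seeing the data, a limit of 0.3% of UMIs in the 4 genes left 3.69% and 2.29% in Ctrl and 6.58% and 2.45% in HLU, so that HLU replicate 2 no longer lay above both Ctrl libraries (difference 1.52 points, exact permutation p = 0.667).

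**Figure D4:**
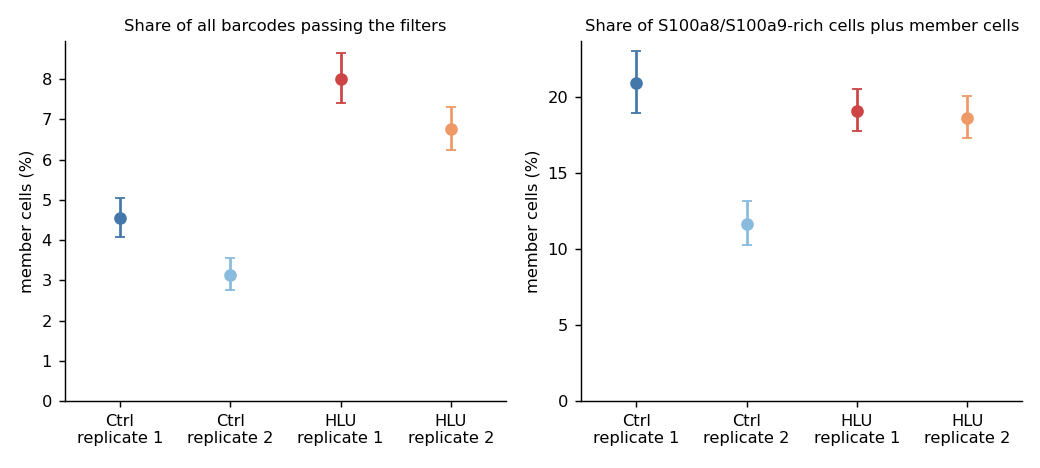
Member cells as a share (%) of all passing barcodes (left) and of S100a8 and S100a9-rich cells plus member cells (right), 1 point per library with exact 95% binomial intervals. The HLU libraries (8.004% and 6.76%) lie above the Ctrl libraries (4.55% and 3.14%) on the left, and Ctrl replicate 1 (21.0%) is highest on the right.

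Gene levels under HLU were compared on counts summed over the member cells of each library (2198635, 1352941, 3108223 and 3228221 UMIs) with edgeR's quasi-likelihood test and Benjamini-Hochberg adjustment. Of 9052 genes tested, 0 were called at an adjusted p under 0.05 (0%), the smallest adjusted p being 0.0561, while 805 (8.89%) had an unadjusted p under 0.05, 599 of them lower in HLU. DESeq2 called 240 on the same sums (2.65%), 234 lower and 6 higher. Without HLU replicate 2 edgeR called 300 of 9231 (3.25%), 285 of them lower, with the lone HLU library assumed to vary like the Ctrl libraries. Both HLU libraries lay above both Ctrl libraries in 19% of genes and below in 18.4%. In such sums, fewer cells of a kind and less RNA per cell cannot be told apart, and nothing beyond the separate mice says how the libraries were handled, so the p-values measure only the spread between these 4 libraries.

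None of the 6 genes Clec4n, Creg1, Pdcd1lg2, Prdx1, Ptgr1 and Gclm had both HLU libraries on one side of both Ctrl libraries. All of them but Prdx1 chose the cells, so the rule sets a floor under their levels in every library. Their values are given as description only. In CPM scaled by the trimmed mean of M-values (TMM), as used from here on, Gclm stood at 2057, 1538, 2139 and 615, a log2 difference of -0.38 (SE 0.63), and Prdx1 at 9524, 9282, 10731 and 4295 (-0.32, SE 0.56). In both, HLU replicate 1 was the highest library and HLU replicate 2 the lowest, and without the latter the differences were 0.25 and 0.19. Of 25 NRF2 targets, 6 lay above in both HLU libraries and 2 below, with a median of -0.18 that became 0.16 without HLU replicate 2. Txnrd1 stood at 338, 351, 442 and 764 (0.81, SE 0.39, adjusted p = 0.656 by edgeR) and Slc7a11 at 1622, 1689, 2174 and 2670 (0.55, SE 0.36, adjusted p = 0.771 by edgeR), and in both genes the HLU libraries lay above the Ctrl libraries. Me1, the malic enzyme, stood at 31.3, 29.2, 7.47 and 4.84 (-2.28, SE 0.39). It had an adjusted p = 0.0940 by edgeR and was the 1 NRF2 target that DESeq2 called (adjusted p = 0.0132). The light and heavy ferritin chains had overlapping groups, Ftl1 at 64962, 50039, 60301 and 35069 and Fth1 at 89487, 69169, 74308 and 96239.

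The genes with the smallest p in the lower direction, none of them called by edgeR, were Crip2, Prelp, Pdgfra, Sod3 and Htra1. Pdgfra, a receptor of mesenchymal cells, had 72, 46, 2 and 3 UMIs in all member cells of a library (log2 difference -5.22, SE 0.47). Prelp, a matrix proteoglycan, had 128, 53, 3 and 2 UMIs (-5.79, SE 0.51). Crip2 (-4.66, SE 0.36), the extracellular dismutase Sod3 (-5.11, SE 0.47) and the secreted protease Htra1 (-5.83, SE 0.56) fitted the same order, and all 5 had an adjusted p of 0.0561 by edgeR. All 5 were also lower in HLU in the other mature neutrophils, where edgeR called them, with adjusted p from 0.0249 to 0.0260. Of the 240 genes called by DESeq2, 234 were measured in mature neutrophils, 228 of them were lower there too and 99 were called there by edgeR. In the skeletal list, 11 of 12 genes lay below both Ctrl libraries, with a median of -4.67 against -4.59 in mature neutrophils. Dcn, the matrix proteoglycan decorin, stood at 4058, 3357, 165 and 71.3 in member cells. The skeletal sum moved with the group in lymphocytes as well (values above), and its part in these differences was not tested.

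In the higher direction, the smallest p were those of Hba-a2, Hbb-bs, Spn, Pdzk1ip1 and Kit, none of them called by edgeR. The haemoglobin chains Hba-a2, with 3, 5, 55 and 65 UMIs (3.08, SE 0.56, adjusted p = 0.102 by edgeR), and Hbb-bs, with 47, 24, 197 and 217 UMIs (1.82, SE 0.34, adjusted p = 0.108), belong to red cells, and the rule capped their share at 0.2% of a cell's UMIs. Spn, which encodes the leukocyte sialoglycoprotein CD43, stood at 5.98, 4.17, 19.6 and 28.4 (2.20, SE 0.44, adjusted p = 0.126 by edgeR). Pdzk1ip1 had 1, 1, 37 and 16 UMIs (3.82, SE 0.79, adjusted p = 0.137 by edgeR). The stem cell factor receptor Kit stood at 4.14, 2.08, 13.1 and 15.9 (2.15, SE 0.50, adjusted p = 0.172 by edgeR). In mature neutrophils, 4 of the 5 were also higher in both HLU libraries than in both Ctrl libraries, none of them called by edgeR: Hba-a2 (1.27, adjusted p = 0.340), Hbb-bs (0.85, adjusted p = 0.770), Spn (1.62, adjusted p = 0.491) and Kit (1.61, adjusted p = 0.476).

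**Figure D5:**
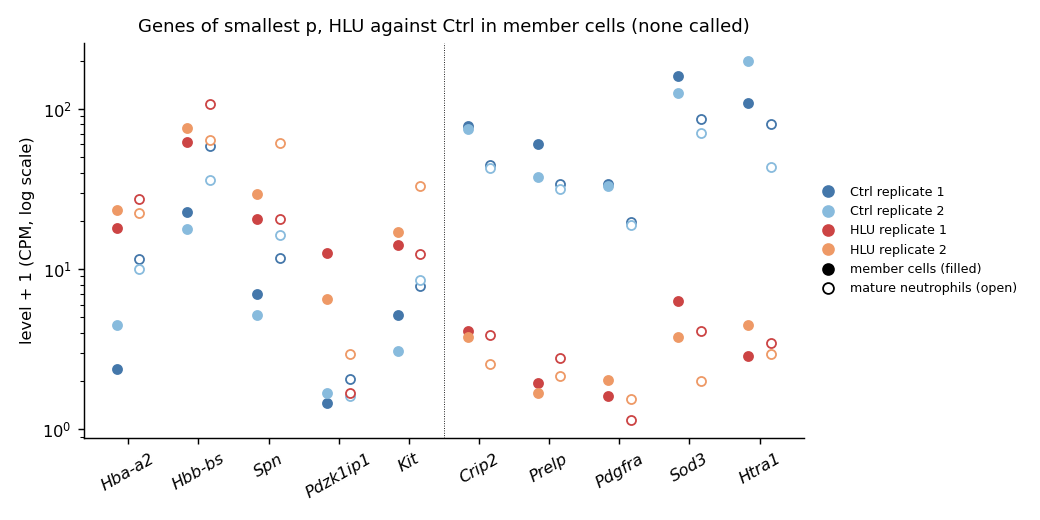
Level in TMM-scaled CPM plus 1 (log scale) of the 5 genes of smallest p in each direction, in member cells (filled) and other mature neutrophils (open), 1 point per library, with genes higher in HLU left of the dotted line. In the member cells the HLU points do not overlap the Ctrl points in any of the 10 genes, of which none was called, and in the 5 genes on the right the mature neutrophils show the same order.

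Neutrophil genes were the list most often higher in HLU member cells. Both HLU libraries lay above both Ctrl libraries in 14 of 20 genes, against 19% of all genes tested, and in none below. The median was 0.92 over the list and 0.45 without HLU replicate 2, none was called, and in mature neutrophils the median was 0.21. Csf3r stood at 117, 185, 277 and 338 (1.03, SE 0.37, adjusted p = 0.485 by edgeR), and S100a8 at 29900, 37369, 43802 and 79748 (0.88, SE 0.57, adjusted p = 0.763). The share of member cells with at least 2% of S100a8 and S100a9 was 50.2% and 59.1% in Ctrl and 57.8% and 80.2% in HLU, and its part in these levels was not tested. Several genes of the list were high in HLU replicate 2 only. The whey acidic protein gene Wfdc21 stood at 558, 629, 658 and 6791, the formyl peptide receptor Fpr1 at 57.5, 137, 89.0 and 791, and, of the activation genes, Il1b, the inflammatory cytokine, at 130, 568, 230 and 4569.

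Set against 19% of all genes above and 18.4% below, lysosome genes had 2 of 22 above and 4 below both Ctrl libraries (median -0.12), glutathione genes 5 and 2 of 14 (-0.22) and glutamine genes 0 and 4 of 16 (-0.36). Without HLU replicate 2 these medians were 0.02, 0.25 and -0.12, so the sign changed in the lysosome and glutathione lists. HIF targets had 5 of 15 below and none above, with a median of -1.001 that was -0.30 without HLU replicate 2 and -1.47 in mature neutrophils. DESeq2 called 3 of them (2.65% of all genes), and edgeR called 3 without HLU replicate 2. They were the vasodilator peptide Adm, with 97, 108, 0 and 3 UMIs (adjusted p = 0.0631 by edgeR and 1.18e-08 by DESeq2), Ndrg1 (-2.38, SE 0.45, adjusted p = 0.109 by edgeR and 0.00143 by DESeq2) and Higd1a (-1.97, SE 0.50, adjusted p = 0.224 by edgeR and 0.0216 by DESeq2). The C-type lectins had 5 of 8 above, with a median of 1.16 that was 0.34 without HLU replicate 2. Among the leukotriene genes, which were low in member cells as a whole, Alox5 stood at 16.1, 18.1, 33.6 and 28.4 (0.86, SE 0.33, adjusted p = 0.525 by edgeR) and Lta4h at 24.4, 34.0, 41.1 and 70.2 (0.93, SE 0.40, adjusted p = 0.584).

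Whether HLU acted differently in member cells and in the other mature neutrophils was tested as an interaction, with the library as a block. Of 10285 genes tested by edgeR, 0 were called (0%), 352 (3.42%) had an unadjusted p under 0.05, and DESeq2 called 1, Mmp12. Mmp12, the macrophage elastase, stood at 32.6, 206, 10.2 and 7.67 TMM-scaled CPM in member cells and at 3.15, 13.7, 12.3 and 3.81 in mature neutrophils. The difference of the HLU effects was -3.39 (SE 0.54, adjusted p = 0.661) by edgeR and -3.35 (adjusted p = 0.00514) by DESeq2. Most of the level came from Ctrl replicate 2, and HLU libraries lay below both Ctrl libraries in member cells only. Against the activated mature neutrophils, the edgeR value was 0.48, so the direction did not hold. The next smallest p in the same direction were those of the chemokine Cxcl5 (-2.94), Serpina1b (-5.03), Ly6a (-4.09) and Dio2 (-3.59). In the other direction they were Pmp22 (2.82), Bglap (5.40), Ndufa4l2 (3.43), Col9a1 (3.51) and Col9a3 (2.43), of which Bglap, the osteocalcin of bone-forming cells, and both collagens are skeletal transcripts. Their adjusted p by edgeR lay between 0.661 and 0.884. The count of calls depended on single libraries, with 1787 genes called by edgeR without HLU replicate 1 and 4 to 21 without 1 of the others.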

How the data were processed

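Single cells of bone tissue from 2 Ctrl and 2 HLU mice were sequenced with 10x 3′ chemistry. The authors aligned reads to mm10 with Cell Ranger 6.0.0 and deposited raw UMI counts per gene and barcode, without a cell annotation. Seurat 4.1.0, which the submitters' processing notes also name, left no file here. All 4 count matrices were read, and their groups came from the sample titles. No column of another sample was used. The member cells, the gene lists and the tests were chosen with earlier results of these data known. Doublets were called within each library (scanpy 1.11.5) and kept, except in 1 alternative.

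Counts were summed per library and population. HLU was compared with Ctrl in edgeR 4.0.16 (quasi-likelihood test, TMM, filterByExpr, Benjamini-Hochberg over all genes, call at an adjusted p under 0.05), with DESeq2 1.42.0 as an alternative. The interaction used library as a block. The study's test over single cells was not used, because cells of 1 mouse are not replicates. Member cells were set beside other cells by log2 ratios of summed CPM, with 1 CPM added, over genes of at least 10 CPM on average, with no test. For shares, the difference between group means was tested by exact permutation of the libraries (two-sided), and their exact binomial intervals (Clopper-Pearson, 95%) cover counting error only. Scripts were tested on simulated counts. Genes named are those of the rule, examples of the lists, the 12 highest and 12 lowest ratios to mature neutrophils with the same sign in all 4 libraries and at least 50 CPM in 1 of the populations in each, and, as none was called, the 5 of smallest p per direction in each test. Wfdc21, Fpr1 and Il1b are named for their level in 1 library, which was seen first. Without a stated strand setting, reads of overlapping genes cannot be told apart, and near-identical copies such as the haemoglobin genes may share reads. Gene positions are those of GENCODE M21 on mm10. The replicate numbers of Ctrl and HLU mark no shared litter, day or batch in the labels. The alternatives were other thresholds, denominators, doublet handling, filters, scaling and tests, a replicate block, and leaving out each library.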

Additional observations from a re-analysis of the deposited data

How the results depend on the processing

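With 2 libraries per group, the count of HLU genes called in member cells depended on the fit. It was 0 with size factors in place of TMM, with at least 10 counts in every library, without doublets and without skeletal, lymphocyte and haemoglobin genes. It was 240 with DESeq2, 590 without a filter on low counts, 43 with at least 6 UMIs of the 4 genes, 11 in member cells with at least 2% of S100a8 and S100a9, and 18, chosen after seeing the data, with at least 0.3% of UMIs in the 4 genes. Leaving out 1 library gave 0 to 300, the latter without HLU replicate 2. The labels state no pairing of mice by replicate number. Deviations from the group mean in Ctrl replicate 1 and HLU replicate 1 correlated at r = 0.213 across 9052 genes, which are not independent. As a single value from 2 libraries per group, this cannot decide whether mice were paired. A fit with the replicate block called 254 genes. For the interaction, 7 genes were called against activated mature neutrophils and 1 with DESeq2, and leaving out 1 library gave 4 to 1787, the latter without HLU replicate 1. The cause of these changes was not tested. The interaction of Mmp12 reversed to 0.48 against activated mature neutrophils. Of the genes named in the HLU test, 88 values kept their direction and side of the threshold and 36 became calls, and in the interaction these were 42 and 16. The difference in shares kept its direction under all its alternatives (1.52 to 4.25 points), and the counts of NRF2, lysosome and neutrophil genes stayed within 1.5 times.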
